A study of Mus musculus with 16 samples.

Results

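Interleukins and their receptors were described in RNA sequencing of whole mouse lung. Members were all genes in the deposited expression table whose mouse symbol begins with Il and a digit, which gave 83 of 53647 genes: 39 ligands (the antagonists Il1rn and Il1f5 among them), 42 receptor chains or binding proteins, the enzyme Il4i1 and the antisense RNA Il1bos. There were 4 groups of lungs. Ad-ATP12A lungs had received bleomycin and an adenovirus named for ATP12A, a catalytic subunit of a proton pump found outside the stomach. Ad-GFP lungs had received bleomycin and an adenovirus carrying the green fluorescent protein GFP, and bleomycin lungs had received bleomycin without a virus. Control lungs are labelled only as control, with no bleomycin or virus named. Bleomycin breaks DNA and, given to mice, causes lung injury that scars, which serves as a model of pulmonary fibrosis. Each group held 4 libraries, 2 from each of 2 batches, and libraries carry names such as b1r2, for the library numbered 2 in batch 1. Values in 4 libraries are always listed as b1r1, b1r2, b2r1 and b2r2. The labels give no strain, sex, age, dose, day of collection, cell type reached by the virus or species of the transgene. They do not state that replicates came from separate mice, so the p-values measure the spread between libraries.

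Interleukins are secreted proteins through which leukocytes, epithelium and stroma signal to each other, and they fall into families that share receptor chains. The IL-1 family signals through paired receptors and the adaptor MyD88 and is held in check by a soluble antagonist, decoy receptors and a binding protein. The IL-6 family shares the receptor chain gp130, the IL-2 family the common gamma chain and the IL-3 family the common beta chain. In fibrotic lung, IL-1 and IL-17 are known for recruiting neutrophils, and IL-4 and IL-13 for the alternative activation of macrophages.

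Levels are in TPM, a measure of transcript abundance that corrects for transcript length and library size, and 15537 to 16336 genes per library reached 1 TPM. Epithelial markers of lung were abundant in every library, with a summed level between 16938 and 149844 TPM over 7 genes. Atp12a itself had 5.13, 2.96, 29.0 and 25.7 TPM in Ad-ATP12A lungs, so less in batch 1 than in batch 2. It lay at 0.2 TPM or less in the other 12 libraries. The club cell product Scgb1a1 was below 1000 TPM in Ad-GFP b1r1, bleomycin b2r2 and control b2r1 and at 24870 TPM or more in the rest. Libraries with Xist, the RNA of the inactive X chromosome, at 10 TPM or more numbered 3 in the Ad-ATP12A group and 1 in each other group. In bulk tissue, fewer cells of a type and less RNA per cell cannot be told apart.

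Start-site sequences are shown for Il1rn and Il6, the members with the largest increases in bleomycin lungs, and for Il18bp, which had the largest change in Ad-ATP12A lungs relative to its error. They are RefSeq promoter windows on build GRCm38.p6, 250 bases before to 50 bases after the start, and 66 of the 83 members had one. Capitals mark matches to the AP-1 motif TGANTCA or to the kappaB consensus, searched on both strands.
Il1rn: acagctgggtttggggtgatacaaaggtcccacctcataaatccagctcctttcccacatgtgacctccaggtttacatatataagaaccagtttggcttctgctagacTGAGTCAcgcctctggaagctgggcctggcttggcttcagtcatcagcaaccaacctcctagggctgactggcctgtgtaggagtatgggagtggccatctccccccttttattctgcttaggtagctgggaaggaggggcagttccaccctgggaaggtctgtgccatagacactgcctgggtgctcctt
Il6: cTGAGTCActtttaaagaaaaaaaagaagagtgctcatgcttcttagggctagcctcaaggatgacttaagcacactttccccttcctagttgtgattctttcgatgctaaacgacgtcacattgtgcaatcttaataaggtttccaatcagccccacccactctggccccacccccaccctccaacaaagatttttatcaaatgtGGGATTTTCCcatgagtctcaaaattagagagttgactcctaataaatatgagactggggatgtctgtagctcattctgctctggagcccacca
Il18bp: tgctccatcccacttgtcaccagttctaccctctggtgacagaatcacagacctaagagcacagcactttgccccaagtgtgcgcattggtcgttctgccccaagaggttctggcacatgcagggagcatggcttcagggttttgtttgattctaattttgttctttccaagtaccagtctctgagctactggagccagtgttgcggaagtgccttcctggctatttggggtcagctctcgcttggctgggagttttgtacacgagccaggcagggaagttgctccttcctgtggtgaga
The Il1rn window, chr2:24336610-24336909 on the plus strand, is the first of 3 for the gene and holds an AP-1 match at base 110. Il6, at chr5:30012864-30013163 on the plus strand, has an AP-1 match at base 2 and a kappaB match at base 207. No match to these motifs, to GAS or to IRF lies in the Il18bp window, chr7:102018183-102018482 on the minus strand. Among 32851 windows of this length, 7.81% hold the AP-1 motif and 4.51% the kappaB consensus. A match is a description of these letters and not a binding site.

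The abundant members were mostly receptors. Of 25 members with a mean of at least 10 TPM over the 16 libraries, 19 were receptors or binding proteins and 6 were ligands. Il6st, which encodes gp130, led with 135 TPM, followed by the IL-10 receptor chain Il10rb with 89.4 TPM and the IL-4 receptor chain Il4ra with 81.0 TPM. The common gamma chain Il2rg averaged 75.0 TPM and the alarmin Il33 74.1 TPM, a difference smaller than the spread over the libraries. After Il33, the most abundant ligands were Il1rn with 35.0 TPM, Il34 with 22.1 TPM, Il18 with 20.1 TPM, and Il16 and Il1b with 12.5 TPM each. Effector cytokines of T cells were near 0: Il4 averaged 0.573 TPM, Il5 0.165 TPM, Il13 0.0919 TPM and Il17a 0.0856 TPM. The symbols Il1f6, Il1f10, Il3, Il9 and Il31 were listed at 0 in all 16 libraries. Altogether 40 members reached 1 TPM in every library, and the summed level of the 83 lay between 795 and 1304 TPM. By group that sum ran from 941 to 1304 TPM in Ad-ATP12A lungs, 855 to 1226 TPM in Ad-GFP lungs, 930 to 1303 TPM in bleomycin lungs and 795 to 1063 TPM in control lungs. These ranges overlapped.

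**Figure D1:**
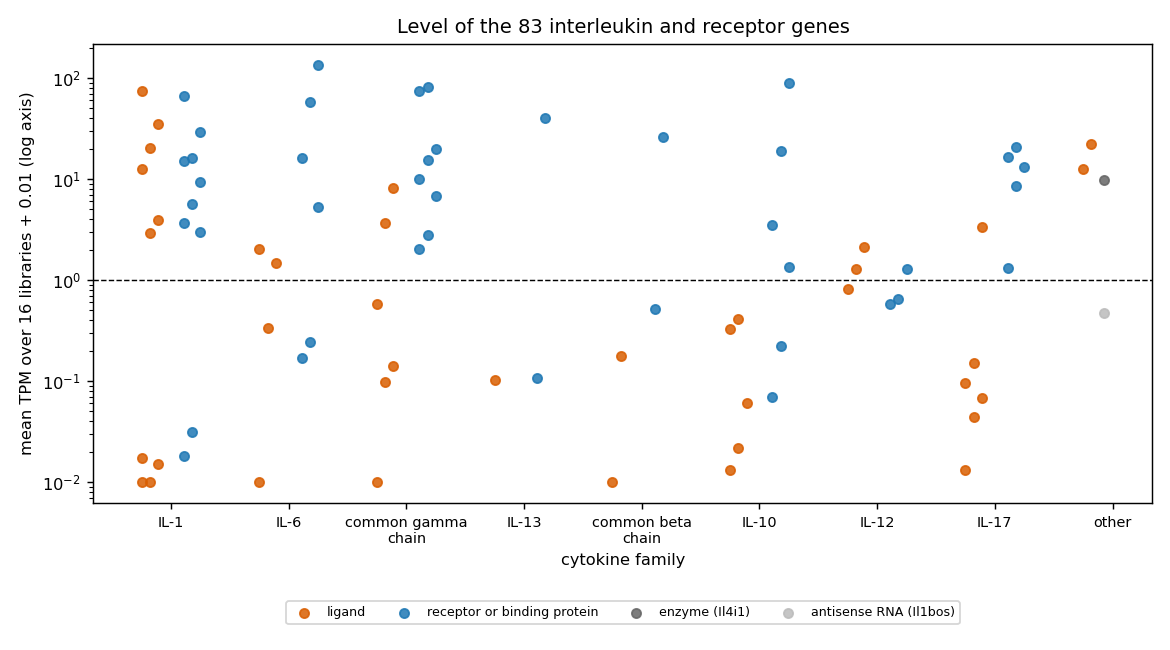
Mean TPM over 16 libraries on a log axis, with 0.01 added, for each of the 83 members by cytokine family and role, with a dashed line at 1 TPM. Receptors (blue) fill the range above 10 TPM in most families, while most ligands (orange) of the common gamma, IL-10 and IL-17 families lie under 1 TPM.

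The test covered the 50 members that reached 1 TPM in 4 or more libraries: 16 ligands, 33 receptors or binding proteins and Il4i1. Of the other 33, 28 stayed below 1 TPM in every library and the highest value of any was 1.45 TPM. Differences are on the log2(TPM + 1) scale from limma with batch as a term, p-values carry the Benjamini-Hochberg adjustment over 17003 genes, and the threshold is 0.05. Against control, 19 members changed in Ad-ATP12A lungs, 17 up and 2 down, where 22.8% of all genes tested changed (13.3% up and 9.49% down). In Ad-GFP lungs 11 changed, 7 up and 4 down, where 13.7% of all genes changed (9.16% up and 4.52% down). In bleomycin lungs 15 changed, 12 up and 3 down, where 18.8% of all genes changed (13.2% up and 5.61% down). As shares of the 50 these are 38% in Ad-ATP12A, 22% in Ad-GFP and 30% in bleomycin lungs. The 19 include Il12b and the 15 include Il23a, which reached 1 TPM in no control library and entered the test through exposed groups. The median difference of the 50 was 0.18, 0.10 and 0.14 in the same order, beside 0.00, 0.03 and 0.05 over all genes tested. These 3 comparisons share the 4 control libraries. The shares of all genes tested also stand beside the counts by family, partner list and marker list below, which rest on few genes.

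Quantile normalization moved the split of all changed genes, from which 58.4% were higher in Ad-ATP12A, 67.0% in Ad-GFP and 70.2% in bleomycin lungs, to 45.9%, 48.8% and 50.5% higher. The split of the members was 17 up and 3 down, 7 up and 4 down, and 12 up and 3 down under that scaling. The number of changed members depended on single libraries. It fell to 10 in Ad-ATP12A lungs without Ad-ATP12A b1r1, without Ad-ATP12A b2r1 or without control b1r2. In Ad-GFP lungs it fell to 2 without Ad-GFP b1r2, 3 without Ad-GFP b2r2, 4 without control b1r1, 3 without control b1r2 and 6 without control b2r1. In bleomycin lungs it fell to 6 without bleomycin b1r1, 9 without bleomycin b1r2 or b2r2 and 8 without control b1r2. With the 3 libraries low in Scgb1a1 left out, an alternative chosen after seeing the data, 10 changed in Ad-ATP12A lungs, of which 9 were among the 19. In Ad-GFP lungs 3 changed, of which only Il3ra was among the 11, with Il6 and Il34 called in addition, and in bleomycin lungs 2 of the 15 remained, Il3ra and Il6. With a term for Xist-expressing libraries, also chosen after seeing the data, 17 of the 19 remained among 21 called in Ad-ATP12A lungs, 10 of the 11 among 11 in Ad-GFP lungs and all 15 in bleomycin lungs.

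Across the 3 comparisons 23 members changed in at least 1, and 9 changed in all 3: Il1rn, Il18bp, Il1r1, Il1rl2, Il7r, Il3ra and Il20rb were higher and Il6ra and Il17rd lower. Il1rn, Il18bp, Il1r1, Il3ra and Il4i1 were higher in each of the 12 bleomycin-exposed libraries than in each control library. These 5 are 10% of the 50, where 7.94% of all genes tested did so. Among members below control in the same sense there was none, against 2.59% of all genes. The fitted difference had the same sign in both batches for 35 of the 50 members tested in Ad-ATP12A, 34 in Ad-GFP and 31 in bleomycin lungs. The changed members were among them in each comparison, but they were called on both batches together, which favours a shared sign.

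**Figure D2:**
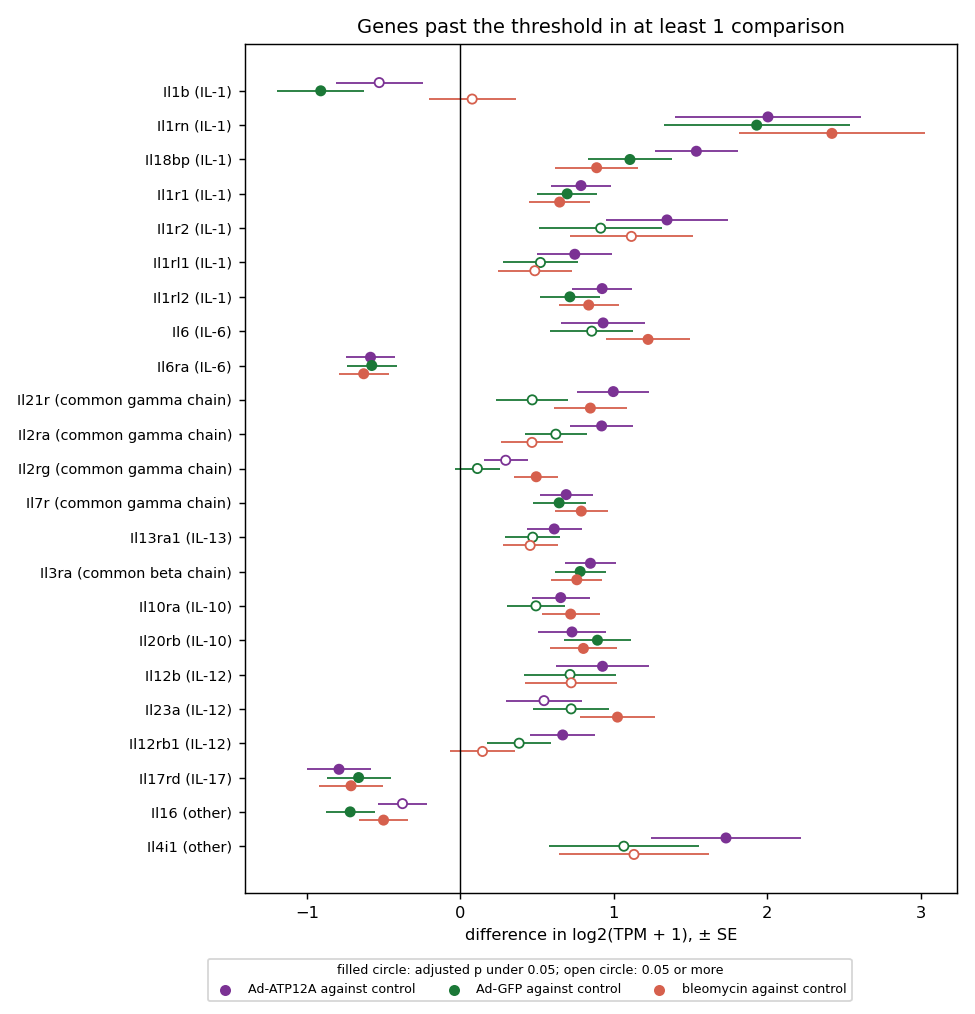
Difference from control in log2(TPM + 1), with its SE, for the 23 members past the threshold in at least 1 comparison, with Ad-ATP12A above Ad-GFP and bleomycin in each row and filled circles past the threshold. Il1rn lies farthest right in all 3 comparisons, and Il6ra, Il17rd and Il16 lie left of 0 in each.

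In the IL-1 family the antagonist Il1rn, the binding protein Il18bp and the receptor chains Il1r1 and Il1rl2 rose in all 3 exposed groups, and no agonist ligand rose. The family has 20 members, of which 14 were tested: 6 rose in Ad-ATP12A, 4 rose and 1 fell in Ad-GFP, and 4 rose in bleomycin lungs. Il1rn encodes the receptor antagonist that occupies the IL-1 receptor without signalling. Il1rn had 27.4, 14.8, 26.7 and 108 TPM in Ad-ATP12A lungs and 14.6, 68.6, 19.2 and 49.4 TPM in Ad-GFP lungs. It had 79.3, 42.6, 19.9 and 57.9 TPM in bleomycin lungs, against 10.7, 10.3, 5.59 and 5.01 TPM in control lungs. All exposed libraries lay above all controls, but values were widely spread within groups, and 1 library, b2r2, set the upper end in Ad-ATP12A lungs. The differences from control were 2.00 ± 0.61 (SE; adjusted p = 0.0304) in Ad-ATP12A, 1.93 ± 0.61 (SE; adjusted p = 0.0492) in Ad-GFP and 2.42 ± 0.61 (SE; adjusted p = 0.0151) in bleomycin lungs. The Ad-ATP12A call of Il1rn ended without Ad-ATP12A b2r1 or b2r2 or control b1r2, b2r1 or b2r2 (adjusted p = 0.0505 to 0.0948). Its Ad-GFP call ended in 11 of the 16 fits that left out 1 library, all but those without Ad-ATP12A b1r2 or b2r2, Ad-GFP b1r1 or b2r1, or bleomycin b2r1 (adjusted p = 0.0534 to 0.168). In bleomycin lungs the call ended without bleomycin b1r1 (adjusted p = 0.0590).

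Il18bp encodes the soluble protein that binds and neutralizes IL-18. Il18bp had 25.04, 15.4, 34.6 and 22.6 TPM in Ad-ATP12A lungs and 13.01, 17.95, 11.1 and 32.8 TPM in Ad-GFP lungs. It had 16.3, 13.7, 12.7 and 16.04 TPM in bleomycin lungs, against 8.51, 6.98, 7.55 and 6.8 TPM in control lungs. The lowest exposed library, Ad-GFP b2r1, lay above the highest control. The differences were 1.54 ± 0.27 (SE; adjusted p = 0.00231) in Ad-ATP12A, 1.10 ± 0.27 (SE; adjusted p = 0.0187) in Ad-GFP and 0.89 ± 0.27 (SE; adjusted p = 0.0366) in bleomycin lungs. No single left-out library ended the Ad-ATP12A call. The Ad-GFP call ended without Ad-GFP b1r2 or b2r2 (adjusted p = 0.0522 to 0.0643) and the bleomycin call without bleomycin b1r1, b1r2 or b2r2 or control b1r2, b2r1 or b2r2 (adjusted p = 0.0731 to 0.110).

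Agonist ligands of the family behaved otherwise. Il1b, the inflammasome-processed agonist, changed only in Ad-GFP lungs, where it fell. Il1b had 10.3, 9.23, 8.29 and 12.8 TPM in Ad-ATP12A lungs and 7.38, 11.2, 5.93 and 6.32 TPM in Ad-GFP lungs. It had 15.4, 11.1, 15.9 and 22.8 TPM in bleomycin lungs, against 16.1, 21.2, 18.8 and 7.61 TPM in control lungs. The groups overlapped, with the lowest values in Ad-GFP lungs and the widest spread among controls. The differences were -0.53 ± 0.28 (SE; adjusted p = 0.192) in Ad-ATP12A, -0.91 ± 0.28 (SE; adjusted p = 0.0484) in Ad-GFP and 0.08 ± 0.28 (SE; adjusted p = 0.880) in bleomycin lungs. The Ad-GFP call of Il1b ended in 13 of the 16 fits that left out 1 library, all but those without bleomycin b1r2 or b2r2 or control b2r2 (adjusted p = 0.0504 to 0.143).

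Il33, an alarmin held in the nucleus of epithelial and stromal cells, was the most abundant ligand and did not pass the test. Il33 had 87.95, 89.2, 22.6 and 49.2 TPM in Ad-ATP12A lungs and 92.3, 74.1, 96.2 and 19.4 TPM in Ad-GFP lungs. It had 37.8, 53.8, 130.2 and 87.1 TPM in bleomycin lungs, against 122, 109, 61.2 and 53.1 TPM in control lungs. Within-group spread was wide, and the batches went opposite ways: the bleomycin difference was -1.34 in batch 1 and 0.89 in batch 2, and -0.22 (adjusted p = 0.803) with the batches together. Il18, an inflammasome product like Il1b, differed from control by -0.27 (adjusted p = 0.587) in Ad-ATP12A, -0.14 (adjusted p = 0.811) in Ad-GFP and 0.19 (adjusted p = 0.717) in bleomycin lungs. The other agonist ligands tested, Il1a and Il1f9 (the older symbol of IL-36 gamma), averaged 3.88 and 2.92 TPM and passed in no comparison with control.

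Dividing one gene by another within each library gives a value that does not depend on library scaling. Il1rn per Il1b ran from 1.61 to 8.38 in Ad-ATP12A lungs, 1.98 to 7.81 in Ad-GFP lungs, 1.25 to 5.14 in bleomycin lungs and 0.298 to 0.667 in control lungs. Transcripts of the antagonist thus outnumbered those of Il1b in all 12 exposed libraries and in no control. Il18bp per Il18 ran from 0.583 to 2.85 in Ad-ATP12A, 0.887 to 1.20 in Ad-GFP, 0.562 to 0.722 in bleomycin and 0.309 to 0.493 in control lungs. Here too no exposed library fell within the control range. The decoy receptor Il1r2 per Il1r1 ran from 0.0780 to 0.154, 0.0348 to 0.166 and 0.0885 to 0.169 in Ad-ATP12A, Ad-GFP and bleomycin lungs, against 0.0320 to 0.0697 in control lungs. In that ratio Ad-GFP lungs overlapped control lungs. Il1rn and Il18bp by themselves were higher in every exposed library than in every control, so the separation of their ratios partly restates that. These ratios were chosen after values were seen and are given without a test.

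**Figure D3:**
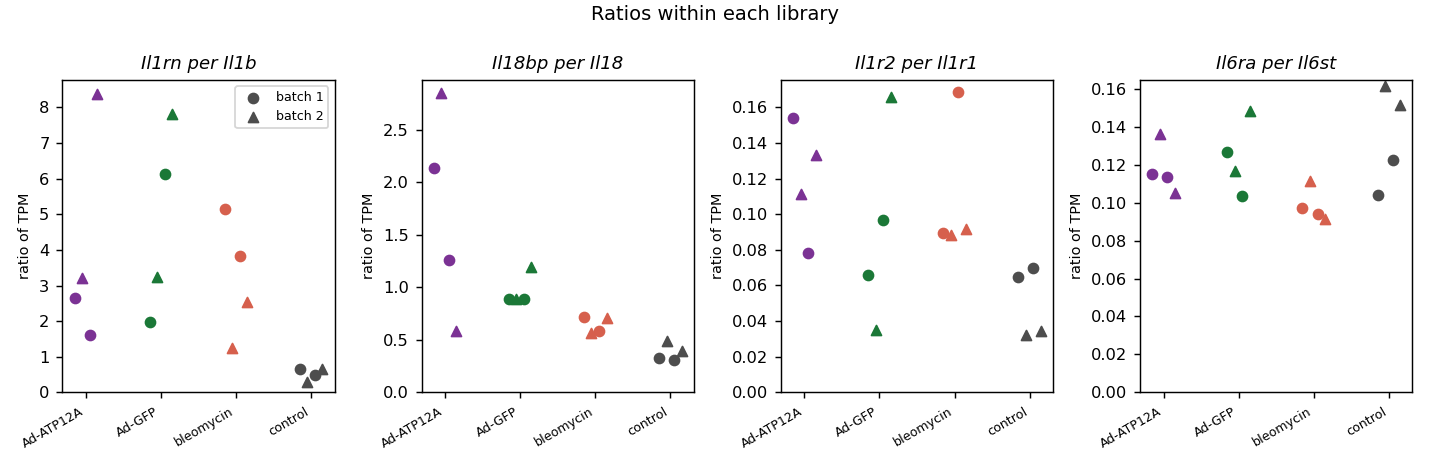
Ratio of TPM within each library for 4 pairs of genes, with 4 libraries per group, circles for batch 1 and triangles for batch 2. For Il1rn per Il1b and Il18bp per Il18 all 12 exposed libraries lie above the 4 control libraries, while Il6ra per Il6st overlaps between groups.

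Among the IL-1 family receptors, Il1r1 and Il1rl2 rose in all 3 comparisons. Il1r1 encodes the signalling receptor for IL-1 alpha and IL-1 beta. Il1r1 had 25.3, 25.4, 45.9 and 42.6 TPM in Ad-ATP12A lungs and 24.1, 29.4, 27.6 and 49.9 TPM in Ad-GFP lungs. It had 28.5, 26.1, 30.3 and 37.8 TPM in bleomycin lungs, against 21.7, 19.7, 18.1 and 17 TPM in control lungs. Every exposed library exceeded every control. The differences were 0.79 ± 0.20 (SE; adjusted p = 0.0132) in Ad-ATP12A, 0.70 ± 0.20 (SE; adjusted p = 0.0329) in Ad-GFP and 0.65 ± 0.20 (SE; adjusted p = 0.0355) in bleomycin lungs. The Ad-GFP call of Il1r1 ended without Ad-GFP b1r2 or b2r2 or control b1r2, b2r1 or b2r2 (adjusted p = 0.0506 to 0.111) and the bleomycin call without bleomycin b1r1, b1r2 or b2r2 or control b2r1 or b2r2 (adjusted p = 0.0736 to 0.0955). Il1rl2 encodes the receptor for the IL-36 cytokines. Il1rl2 had 13.03, 12.97, 23.7 and 23.5 TPM in Ad-ATP12A lungs and 9.58, 12.8, 15.4 and 26.7 TPM in Ad-GFP lungs. It had 16.6, 14.2, 13.9 and 22.3 TPM in bleomycin lungs, against 7.59, 8.05, 10.5 and 9.23 TPM in control lungs. Ad-GFP b1r1 lay within the control range and all other exposed libraries lay above it. The differences were 0.92 (adjusted p = 0.00554) in Ad-ATP12A, 0.71 (adjusted p = 0.0286) in Ad-GFP and 0.84 (adjusted p = 0.0107) in bleomycin lungs. Its Ad-GFP call ended without Ad-GFP b1r2 or b2r2 or control b1r1, b1r2, b2r1 or b2r2 (adjusted p = 0.0517 to 0.0930).

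Other receptors of the family passed in Ad-ATP12A lungs alone, which does not show that the groups differ. The decoy receptor Il1r2 differed from control by 1.35 (adjusted p = 0.0281) in Ad-ATP12A, 0.91 (adjusted p = 0.140) in Ad-GFP and 1.11 (adjusted p = 0.0658) in bleomycin lungs. That call of Il1r2 ended without Ad-ATP12A b1r1, b2r1 or b2r2 or control b2r1 or b2r2 (adjusted p = 0.0580 to 0.0838). For Il1rl1, the IL-33 receptor, the differences were 0.75 (adjusted p = 0.0407), 0.52 (adjusted p = 0.165) and 0.49 (adjusted p = 0.177) in the same order. That call of Il1rl1 ended without Ad-ATP12A b1r1, b2r1 or b2r2 or control b2r1 or b2r2 (adjusted p = 0.0670 to 0.123). The most abundant receptor of the family, the IL-18 receptor chain Il18r1, differed by 0.08 (adjusted p = 0.782) in bleomycin lungs, where it held 58.4 to 72.2 TPM, against 47.0 to 77.4 TPM in control lungs.

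Of 13 genes that process or relay IL-1 family cytokines, 2 rose in Ad-ATP12A and 1 in each of Ad-GFP and bleomycin lungs, and none fell. Of all genes tested, 13.3%, 9.16% and 13.2% were higher in Ad-ATP12A, Ad-GFP and bleomycin lungs, so these counts were close to or below that share. With 1 library left out at a time the counts of genes that rose ran from 1 to 3, 0 to 1 and 0 to 2. Pycard, the inflammasome adaptor ASC, rose by 1.20 (adjusted p = 0.00515) in Ad-ATP12A, 0.90 (adjusted p = 0.0304) in Ad-GFP and 1.02 (adjusted p = 0.0140) in bleomycin lungs. The Ad-GFP call of Pycard ended without Ad-GFP b1r2 or b2r2 or control b1r1 or b1r2 (adjusted p = 0.0711 to 0.108) and the bleomycin call without bleomycin b1r2 (adjusted p = 0.0519). The adaptor Myd88 rose in Ad-ATP12A lungs by 0.44 (adjusted p = 0.0348), a call that ended without Ad-ATP12A b1r1, b2r1 or b2r2 or control b1r2, b2r1 or b2r2 (adjusted p = 0.0533 to 0.112).

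In the IL-6 family the ligand Il6 rose in Ad-ATP12A and bleomycin lungs, and its specific receptor chain Il6ra fell in all 3 exposed groups. Of 10 members 6 were tested: 1 rose and 1 fell in Ad-ATP12A, 1 fell in Ad-GFP, and 1 rose and 1 fell in bleomycin lungs. Il6, an acute-phase cytokine, was scarce throughout. It reached 1 TPM in 12 libraries, with b2r1 the only control among them, and so entered the test mainly through the exposed groups. Il6 had 2.39, 3.19, 1.98 and 1.42 TPM in Ad-ATP12A lungs and 2.12, 3.21, 0.99 and 2.19 TPM in Ad-GFP lungs. It had 3.41, 2.77, 1.56 and 4.42 TPM in bleomycin lungs, against 0.16, 0.87, 1.06 and 0.74 TPM in control lungs. Of the exposed libraries, only Ad-GFP b2r1 lay within the control range. The differences were 0.93 ± 0.27 (SE; adjusted p = 0.0263) in Ad-ATP12A, 0.86 ± 0.27 (SE; adjusted p = 0.0510) in Ad-GFP and 1.22 ± 0.27 (SE; adjusted p = 0.00831) in bleomycin lungs. For Il6, the Ad-ATP12A call ended without Ad-ATP12A b1r1, b1r2 or b2r1 or control b1r1 or b1r2 (adjusted p = 0.0524 to 0.0800), and no single library ended the bleomycin call.

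Il6ra encodes the chain that binds IL-6 before gp130 is engaged. Il6ra had 9.67, 9.91, 18.4 and 19.4 TPM in Ad-ATP12A lungs and 9.8, 9.21, 17.8 and 21.7 TPM in Ad-GFP lungs. It had 10.3, 9.1, 17.3 and 18.5 TPM in bleomycin lungs, against 21.6, 18.5, 25.7 and 18.9 TPM in control lungs. Exposed lungs of batch 1 held 9.1 to 10.3 TPM, below all controls, while 3 exposed libraries of batch 2 lay within the control range. The differences were -0.59 ± 0.16 (SE; adjusted p = 0.0210) in Ad-ATP12A, -0.58 ± 0.16 (SE; adjusted p = 0.0321) in Ad-GFP and -0.63 ± 0.16 (SE; adjusted p = 0.0173) in bleomycin lungs. Within batches the bleomycin difference was -0.97 in batch 1 and -0.29 in batch 2. The Ad-ATP12A call of Il6ra ended without Ad-ATP12A b1r1 or control b1r1 or b1r2 (adjusted p = 0.0539 to 0.0644), the Ad-GFP call without Ad-GFP b1r1 or b1r2 or control b1r1, b1r2 or b2r1 (adjusted p = 0.0512 to 0.111) and the bleomycin call without bleomycin b1r2 or control b1r1 or b1r2 (adjusted p = 0.0529 to 0.0585). Il6st itself differed by -0.44 (adjusted p = 0.182) in Ad-ATP12A, -0.50 (adjusted p = 0.161) in Ad-GFP and -0.23 (adjusted p = 0.508) in bleomycin lungs. The ratio of Il6ra to Il6st ran from 0.105 to 0.136 in Ad-ATP12A, 0.103 to 0.148 in Ad-GFP, 0.0913 to 0.111 in bleomycin and 0.104 to 0.161 in control lungs, and these ranges overlapped.

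Il11, a gp130 cytokine made by stromal cells, was scarce as well and passed in no comparison. Il11 had 1.73, 0.71, 2.63 and 2.02 TPM in Ad-ATP12A lungs and 0.88, 1.62, 0.92 and 3.25 TPM in Ad-GFP lungs. It had 2.46, 3.22, 0.62 and 1.17 TPM in bleomycin lungs, against 0.53, 0.57, 0.82 and 0.37 TPM in control lungs. Exposed lungs ranged from below the highest control to well above it. It reached 1 TPM in 8 libraries, none of them a control, and differed by 0.77 (adjusted p = 0.106) in Ad-ATP12A, 0.69 (adjusted p = 0.181) in Ad-GFP and 0.77 (adjusted p = 0.119) in bleomycin lungs.

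Genes of gp130 signalling outside the Il symbols changed as well. Of 12 listed, 6 rose and 2 fell in Ad-ATP12A, 6 rose and 1 fell in Ad-GFP, and 6 rose in bleomycin lungs. In Ad-GFP lungs the 6 became 1 without Ad-GFP b1r2 and 2 without Ad-GFP b2r2 or control b1r2, while they were 5 or 6 in every fit with 1 library left out for Ad-ATP12A and bleomycin lungs. Those that fell numbered 0 to 2 in Ad-ATP12A and 0 to 3 in Ad-GFP lungs. Osm, which encodes oncostatin M, rose by 1.12 (adjusted p = 0.00145) in Ad-ATP12A, 0.70 (adjusted p = 0.0239) in Ad-GFP and 1.10 (adjusted p = 0.00197) in bleomycin lungs. Its receptor Osmr rose by 0.75 (adjusted p = 0.00506), 0.74 (adjusted p = 0.00889) and 0.82 (adjusted p = 0.00372) in the same order. Socs3, the feedback inhibitor induced by STAT3, rose by 1.61 (adjusted p = 0.00314), 1.17 (adjusted p = 0.0233) and 1.67 (adjusted p = 0.00300). In Ad-GFP lungs the call of Osm ended without Ad-GFP b1r2 or b2r2 or control b1r1 or b1r2 (adjusted p = 0.0579 to 0.0888) and that of Socs3 without Ad-GFP b1r2 or b2r2 or control b1r2 or b2r2 (adjusted p = 0.0514 to 0.0862).

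Several receptors of the common gamma chain family rose, and its ligands were scarce. The family has 14 members, of which 10 were tested, including only Il7 and Il15 among 6 ligands. In Ad-ATP12A lungs 3 members rose, in Ad-GFP lungs 1 and in bleomycin lungs 3, and none fell. Of all genes tested, 13.3%, 9.16% and 13.2% were higher in the same order, so the Ad-GFP count was close to that share. Il7r, the IL-7 receptor chain carried by T cells and innate lymphoid cells, had the smallest adjusted p of all members in bleomycin lungs. Il7r had 18.9, 19.9, 20.5 and 27.5 TPM in Ad-ATP12A lungs and 15.3, 21.1, 18.5 and 30.8 TPM in Ad-GFP lungs. It had 21.4, 14.6, 29.3 and 30.5 TPM in bleomycin lungs, against 11.4, 11.95, 13.3 and 15.3 TPM in control lungs. Only bleomycin b1r2 and Ad-GFP b1r1 fell within the control range. The differences were 0.69 ± 0.17 (SE; adjusted p = 0.0130) in Ad-ATP12A, 0.64 ± 0.17 (SE; adjusted p = 0.0260) in Ad-GFP and 0.79 ± 0.17 (SE; adjusted p = 0.00778) in bleomycin lungs. The Ad-GFP call of Il7r ended without Ad-GFP b1r2 or b2r2 or control b1r1, b1r2 or b2r1 (adjusted p = 0.0530 to 0.0961).

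Il21r encodes the IL-21 receptor of lymphocytes. Il21r had 16.7, 12.2, 14.2 and 9.56 TPM in Ad-ATP12A lungs and 6.53, 8.01, 7.21 and 14.6 TPM in Ad-GFP lungs. It had 11.7, 9.64, 9.08 and 17.2 TPM in bleomycin lungs, against 4.84, 5.67, 7 and 6.6 TPM in control lungs. All bleomycin and Ad-ATP12A libraries lay above all controls, whereas Ad-GFP b1r1 did not. The differences were 1.00 ± 0.24 (SE; adjusted p = 0.00980) in Ad-ATP12A, 0.47 ± 0.24 (SE; adjusted p = 0.197) in Ad-GFP and 0.85 ± 0.24 (SE; adjusted p = 0.0239) in bleomycin lungs. The bleomycin call of Il21r ended without bleomycin b1r1 or b2r2 or control b1r1 or b1r2 (adjusted p = 0.0536 to 0.0810).

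Il2rg, the common gamma chain itself, passed in bleomycin lungs. Il2rg had 77.4, 78.8, 67.02 and 86.98 TPM in Ad-ATP12A lungs and 50.02, 65.2, 83.4 and 77.8 TPM in Ad-GFP lungs. It had 78.3, 70.9, 98.8 and 113 TPM in bleomycin lungs, against 67.5, 60.5, 66.3 and 57.2 TPM in control lungs. Bleomycin lungs lay above all controls, and both virus groups overlapped them. The differences were 0.30 ± 0.14 (SE; adjusted p = 0.153) in Ad-ATP12A, 0.11 ± 0.14 (SE; adjusted p = 0.645) in Ad-GFP and 0.49 ± 0.14 (SE; adjusted p = 0.0299) in bleomycin lungs. The bleomycin call of Il2rg ended without bleomycin b1r1, b2r1 or b2r2 or control b1r2, b2r1 or b2r2 (adjusted p = 0.0506 to 0.0958). Il2ra, the high-affinity IL-2 receptor chain of regulatory and activated T cells, passed in Ad-ATP12A lungs. Il2ra had 3.63, 3.28, 4.12 and 4.27 TPM in Ad-ATP12A lungs and 2.11, 2.28, 2.37 and 5.8 TPM in Ad-GFP lungs. It had 1.9, 1.4, 3.23 and 4.16 TPM in bleomycin lungs, against 1.39, 1.3, 1.43 and 2.12 TPM in control lungs. All Ad-ATP12A libraries exceeded all controls, and Ad-GFP b1r1 and bleomycin b1r1 and b1r2 did not. The Il2ra differences were 0.92 (adjusted p = 0.00702) in Ad-ATP12A, 0.62 (adjusted p = 0.0573) in Ad-GFP and 0.47 (adjusted p = 0.124) in bleomycin lungs, and no single library ended the Ad-ATP12A call.

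Beside these receptors, summed markers of T cells (8 genes) were 119 to 145 TPM in Ad-ATP12A, 56.8 to 122 TPM in Ad-GFP, 68.7 to 133 TPM in bleomycin and 62.0 to 92.9 TPM in control lungs. Of the 8 markers, 6 rose in Ad-ATP12A lungs and none passed in Ad-GFP or bleomycin lungs. The 6 became 1 without Ad-ATP12A b1r1 and 3 without Ad-ATP12A b1r2 or control b1r1, b1r2 or b2r2. Summed B cell markers (5 genes) were 56.7 to 150 TPM in Ad-ATP12A, 38.3 to 82.3 TPM in Ad-GFP, 48.7 to 152 TPM in bleomycin and 130 to 193 TPM in control lungs. Natural killer cell markers (6 genes) summed to 14.4 to 25.7 TPM, 13.9 to 32.5 TPM and 16.5 to 43.0 TPM in Ad-ATP12A, Ad-GFP and bleomycin lungs, against 30.9 to 67.8 TPM in control lungs. Of these, 3 natural killer cell markers fell in Ad-ATP12A lungs, and 2 such markers and 3 B cell markers fell in Ad-GFP lungs. The 3 in Ad-ATP12A lungs became 1 without Ad-ATP12A b2r2 or control b1r1 or b2r1, and 4 of the 5 B cell markers fell there without Ad-ATP12A b1r1. In Ad-GFP lungs both counts became 0 without Ad-GFP b1r2. The 2 also became 0 without Ad-GFP b2r2 or control b1r1, b1r2 or b2r1 and 1 without Ad-GFP b1r1, and the 3 became 1 without Ad-GFP b2r2 or control b1r2. The part of these cells in the receptor differences was not tested.

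The most abundant receptor of the family, Il4ra, did not pass. Il4ra had 70.4, 54.9, 148 and 144 TPM in Ad-ATP12A lungs and 43.6, 71.6, 79.2 and 132 TPM in Ad-GFP lungs. It had 90.4, 70.9, 73.1 and 103 TPM in bleomycin lungs, against 70.5, 54.99, 53.6 and 35.6 TPM in control lungs. Values were highest in batch 2 of the Ad-ATP12A group. The Ad-ATP12A difference was near 0 in batch 1 and 1.72 in batch 2, and 0.86 (adjusted p = 0.0661) with the batches together, and the bleomycin difference was 0.67 (adjusted p = 0.159). Il15, the most abundant ligand, held 5.53 to 13.7 TPM in Ad-ATP12A lungs and 6.64 to 11.4 TPM in control lungs and passed in no comparison with control. Of 10 listed partners of the common gamma chain and of type 2 signalling, 3 rose and 1 fell in Ad-ATP12A, and 2 rose and 1 fell in each of Ad-GFP and bleomycin lungs. With 1 library left out, those that rose numbered 2 to 3, 1 to 3 and 2 to 3, and those that fell 1 to 3, 1 and 0 to 1, in the same order. The kinase Jak3, which binds the common gamma chain, rose by 0.55 (adjusted p = 0.00505) in bleomycin lungs, and the TSLP receptor Crlf2 by 0.90 (adjusted p = 0.00562). The transcription factor Stat5b fell, with -0.49 (adjusted p = 0.0136), a call that ended without bleomycin b1r2 (adjusted p = 0.0501). Jak3, Crlf2 and Stat5b also passed in Ad-ATP12A (adjusted p = 0.0410, 0.00465 and 0.00705) and Ad-GFP lungs (adjusted p = 0.0415, 0.0108 and 0.00821). In each of these groups the Jak3 call ended in 9 of the 16 fits that left out 1 library.

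Il13 was near 0 in every library, at 0.06 to 0.19 TPM in Ad-ATP12A lungs, 0 to 0.28 TPM in Ad-GFP lungs, 0 to 0.18 TPM in bleomycin lungs and 0 to 0.06 TPM in control lungs. Il4 held 0 to 1.24 TPM over all libraries, and neither ligand was tested. Their shared receptor chain Il13ra1 was well expressed. Il13ra1 had 35.9, 37.1, 56.98 and 57.8 TPM in Ad-ATP12A lungs and 31.1, 40.1, 38.97 and 60.7 TPM in Ad-GFP lungs. It had 42.8, 35.98, 39.5 and 46.3 TPM in bleomycin lungs, against 33.9, 31.3, 28.2 and 25.7 TPM in control lungs. It rose in Ad-ATP12A lungs, where all libraries exceeded all controls. The differences were 0.61 ± 0.18 (SE; adjusted p = 0.0269) in Ad-ATP12A, 0.47 (adjusted p = 0.0952) in Ad-GFP and 0.45 (adjusted p = 0.0908) in bleomycin lungs, and the Ad-ATP12A difference was 0.16 in batch 1 and 1.06 in batch 2. For Il13ra1, the Ad-ATP12A call ended without Ad-ATP12A b2r1 or b2r2 or control b2r1 or b2r2 (adjusted p = 0.0679 to 0.0845).

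Some products that IL-4 and IL-13 are known to induce in macrophages and epithelium rose. Of 12 listed, 6 rose in Ad-ATP12A, 2 in Ad-GFP and 3 in bleomycin lungs, and none fell. The 6 became 3 without Ad-ATP12A b1r1 or b2r2, the 2 ran from 1 to 3 and the 3 became 5 without bleomycin b2r1. Retnla, a secreted protein of alternatively activated macrophages, rose by 4.24 (adjusted p = 4.9e-04) in Ad-ATP12A, 4.17 (adjusted p = 0.00102) in Ad-GFP and 4.12 (adjusted p = 6.9e-04) in bleomycin lungs. The checkpoint ligand Pdcd1lg2 rose by 0.95 (adjusted p = 0.0147), 0.82 (adjusted p = 0.0401) and 1.06 (adjusted p = 0.00970) in the same order, and its Ad-GFP call ended without Ad-GFP b1r1, b1r2 or b2r2, bleomycin b1r1, or control b1r1, b1r2, b2r1 or b2r2 (adjusted p = 0.0523 to 0.137). In Ad-ATP12A lungs the arginine-degrading enzyme Arg1 rose by 3.76 (adjusted p = 0.0173), a call that ended without Ad-ATP12A b2r1 or b2r2 (adjusted p = 0.0579 to 0.0618). Summed markers of monocytes and interstitial macrophages (7 genes, of which Mrc1 is also in the list of products) were 700 to 2567 TPM in Ad-ATP12A, 484 to 2098 TPM in Ad-GFP, 648 to 1413 TPM in bleomycin and 191 to 274 TPM in control lungs. Of the 7, 3 rose in each of Ad-ATP12A and Ad-GFP and 5 in bleomycin lungs, C1qa, C1qb and C1qc in each. Ccr2, Mrc1 and Cx3cr1 averaged higher in each exposed group than in control lungs. Ly6c2 averaged 50.1 TPM in Ad-ATP12A, 30.1 TPM in Ad-GFP and 28.7 TPM in bleomycin lungs, against 40.8 TPM in control lungs. No exposed library fell within the control range of the sum, and the part of these cells in the differences was not tested.

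Il3ra, the IL-3 receptor chain that pairs with the common beta chain, was the one member of its family that changed, and it rose in all 3 comparisons. Il3ra had 24.6, 26.1, 31.01 and 39.6 TPM in Ad-ATP12A lungs and 24.5, 30.1, 26.9 and 32.8 TPM in Ad-GFP lungs. It had 30.8, 30.7, 22.7 and 28.5 TPM in bleomycin lungs, against 15.3, 15.6, 21.5 and 13.1 TPM in control lungs. Every exposed library exceeded every control, with the narrowest gap between bleomycin b2r1 and control b2r1. The differences were 0.85 ± 0.17 (SE; adjusted p = 0.00388) in Ad-ATP12A, 0.78 ± 0.17 (SE; adjusted p = 0.00982) in Ad-GFP and 0.76 ± 0.17 (SE; adjusted p = 0.00795) in bleomycin lungs. No single left-out library ended any of the 3 calls, and the calls also held without the 3 libraries low in Scgb1a1, with adjusted p = 0.0158 in Ad-GFP and 0.0203 in bleomycin lungs. The ligand Il3 was listed at 0 throughout. Il5, the eosinophil growth factor, lay at or below 0.44 TPM, and its receptor Il5ra reached 1 TPM in 4 libraries, of which 3 were controls.

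The beta chains that Il3ra pairs with rose too. Of 7 listed genes of the common beta chain and CSF1 receptor, 6 were tested and 3 rose in each comparison. The 3 became 1 in Ad-GFP lungs without Ad-GFP b1r2 or b2r2 or control b1r2, b2r1 or b2r2, and 1 in Ad-ATP12A lungs without Ad-ATP12A b2r2. Csf2ra, the GM-CSF receptor chain, rose by 1.13 (adjusted p = 0.00233) in Ad-ATP12A, 1.29 (adjusted p = 0.00185) in Ad-GFP and 1.44 (adjusted p = 5.9e-04) in bleomycin lungs. The common beta chain Csf2rb rose by 1.43 (adjusted p = 0.0246), 1.44 (adjusted p = 0.0344) and 1.48 (adjusted p = 0.0241). Its calls ended without Ad-ATP12A b2r1 or b2r2 or control b2r1 or b2r2 (adjusted p = 0.0646 to 0.0841) in Ad-ATP12A, without Ad-GFP b1r2 or b2r2 or control b1r2, b2r1 or b2r2 (adjusted p = 0.0589 to 0.113) in Ad-GFP and without bleomycin b1r1, b1r2 or b2r2 or control b2r1 or b2r2 (adjusted p = 0.0601 to 0.0773) in bleomycin lungs. Csf2rb2, a near-identical mouse copy, can share reads with Csf2rb, so the split between them is uncertain.

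**Figure D4:**
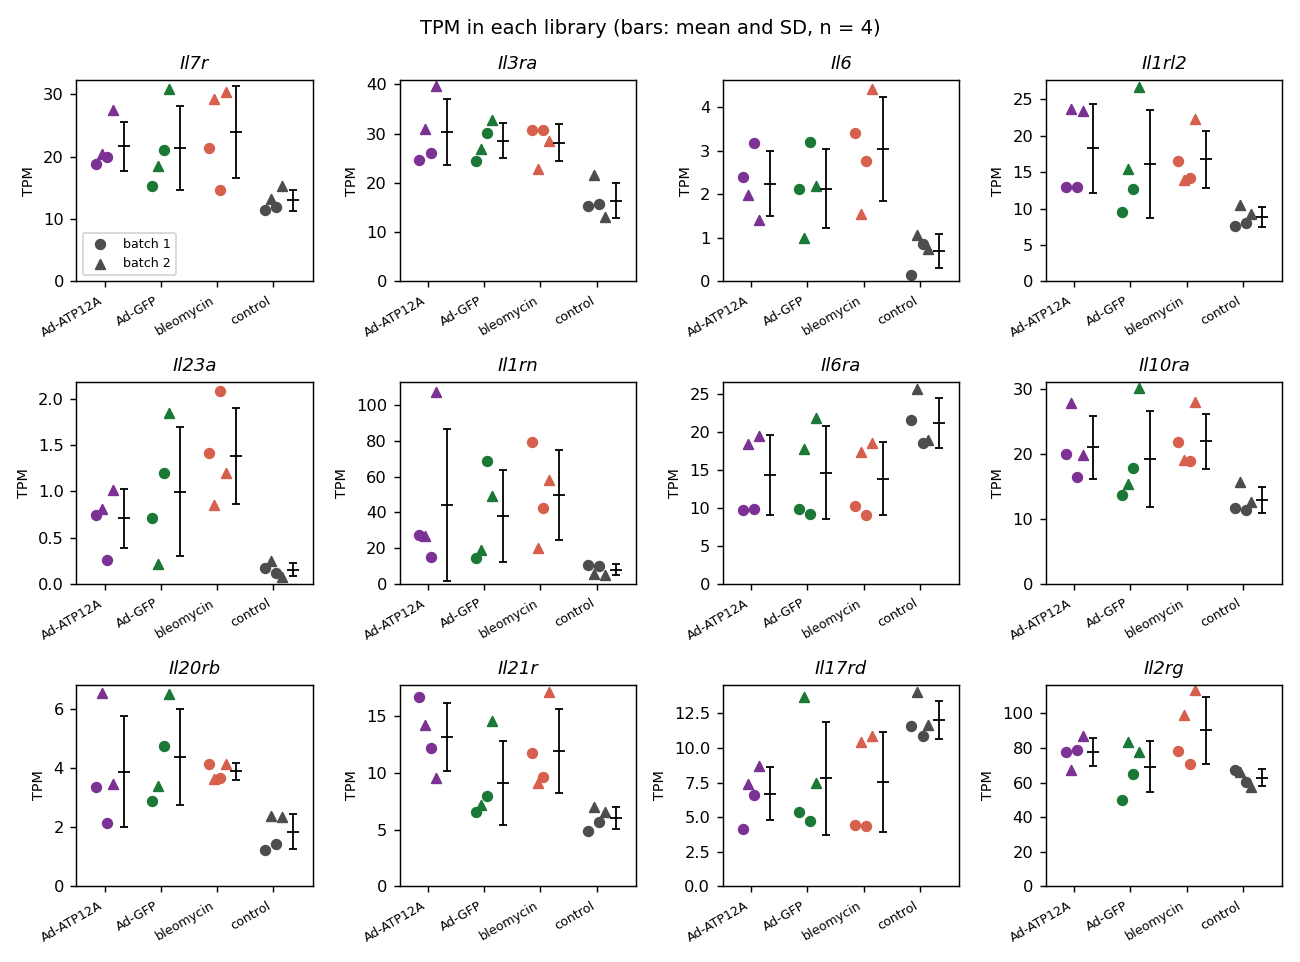
TPM in each library for the 12 members with the smallest adjusted p in bleomycin against control, circles for batch 1 and triangles for batch 2, bars for mean and SD over 4 libraries. Exposed libraries lie above control for Il1rn and Il3ra, and Il6ra and Il17rd are lowest in exposed libraries of batch 1.

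In the IL-10 family 2 receptor chains rose and no ligand was tested. Of 11 members, 4 receptors were tested: 2 rose in Ad-ATP12A, 1 in Ad-GFP and 2 in bleomycin lungs. Il10ra is the ligand-binding chain for the anti-inflammatory cytokine IL-10. Il10ra had 20.03, 16.4, 27.9 and 19.8 TPM in Ad-ATP12A lungs and 13.7, 17.8, 15.3 and 30.1 TPM in Ad-GFP lungs. It had 21.8, 18.9, 19.02 and 28 TPM in bleomycin lungs, against 11.7, 11.3, 15.8 and 12.7 TPM in control lungs. Bleomycin and Ad-ATP12A libraries lay above all controls, and Ad-GFP b1r1 and b2r1 within their range. The differences were 0.65 ± 0.19 (SE; adjusted p = 0.0253) in Ad-ATP12A, 0.49 ± 0.19 (SE; adjusted p = 0.0982) in Ad-GFP and 0.72 ± 0.19 (SE; adjusted p = 0.0189) in bleomycin lungs. The Ad-ATP12A call of Il10ra ended without Ad-ATP12A b1r1 or b2r1 or control b1r2 or b2r2 (adjusted p = 0.0560 to 0.0836) and the bleomycin call without bleomycin b1r1 or b2r2 (adjusted p = 0.0616 to 0.0670).

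Il20rb encodes a chain of the receptors for IL-19, IL-20 and IL-24. Il20rb had 3.36, 2.14, 6.55 and 3.47 TPM in Ad-ATP12A lungs and 2.88, 4.74, 3.38 and 6.5 TPM in Ad-GFP lungs. It had 4.13, 3.65, 3.64 and 4.13 TPM in bleomycin lungs, against 1.24, 1.44, 2.37 and 2.34 TPM in control lungs. All exposed libraries but Ad-ATP12A b1r2 lay above the control range. The differences were 0.73 ± 0.22 (SE; adjusted p = 0.0303) in Ad-ATP12A, 0.89 ± 0.22 (SE; adjusted p = 0.0186) in Ad-GFP and 0.80 ± 0.22 (SE; adjusted p = 0.0225) in bleomycin lungs. For Il20rb, the Ad-ATP12A call ended without Ad-ATP12A b1r1 or b2r1 or control b1r1 or b1r2 (adjusted p = 0.0658 to 0.101), the Ad-GFP call without Ad-GFP b1r2 or b2r2 or control b1r1 or b1r2 (adjusted p = 0.0507 to 0.0729) and the bleomycin call without bleomycin b1r1 or b1r2 or control b1r1 or b1r2 (adjusted p = 0.0546 to 0.0804). Its usual partner Il20ra was not tested. Il10rb, the chain shared by the IL-10 and IL-22 receptors and the family's most abundant member, held 83.8 to 100.6 TPM in exposed lungs and 76.4 to 95.4 TPM in control lungs and passed in no comparison.

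Il10 itself was under the filter of the test. Il10 had 0.58, 0.81, 1.15 and 0.39 TPM in Ad-ATP12A lungs and 0.47, 0.28, 0.06 and 1.3 TPM in Ad-GFP lungs. It had 0.21, 0.2, 0.42 and 0.32 TPM in bleomycin lungs, against 0.1, 0, 0.06 and 0.05 TPM in control lungs. Each Ad-ATP12A library lay above each control. In a fit with no filter, over 35205 genes, the Ad-ATP12A difference of Il10 was 0.70 with adjusted p = 0.0412. That fit also called Il22ra2, the soluble IL-22 binding protein, lower, at -0.27 in Ad-ATP12A lungs (adjusted p = 0.0334) and -0.32 in bleomycin lungs (adjusted p = 0.0178), at levels under 0.5 TPM in every library.

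Il23a rose in bleomycin lungs and Il12b and Il12rb1 in Ad-ATP12A lungs, all at low levels. Of 6 members 4 were tested: 2 rose in Ad-ATP12A, none passed in Ad-GFP and 1 rose in bleomycin lungs. Il23a encodes the p19 subunit particular to IL-23. Il23a had 0.74, 0.26, 0.81 and 1.02 TPM in Ad-ATP12A lungs and 0.71, 1.2, 0.22 and 1.85 TPM in Ad-GFP lungs. It had 1.41, 2.08, 0.85 and 1.2 TPM in bleomycin lungs, against 0.17, 0.12, 0.25 and 0.08 TPM in control lungs. All exposed libraries but Ad-GFP b2r1 exceeded the controls. The differences were 0.54 ± 0.25 (SE; adjusted p = 0.123) in Ad-ATP12A, 0.72 ± 0.25 (SE; adjusted p = 0.0660) in Ad-GFP and 1.02 ± 0.25 (SE; adjusted p = 0.0125) in bleomycin lungs, and no single library ended the bleomycin call. Il23a and Il12b reached 1 TPM in 6 and 8 of the 16 libraries and no control did for either, so they entered the test through the exposed groups. Il12rb1 reached it in 9, with b2r1 the only control among them. Il12b, the p40 subunit of IL-12 and IL-23, differed by 0.93 (adjusted p = 0.0399) in Ad-ATP12A, 0.71 (adjusted p = 0.127) in Ad-GFP and 0.72 (adjusted p = 0.108) in bleomycin lungs. Its Ad-ATP12A call ended without Ad-ATP12A b1r1 or b1r2 or control b1r2, b2r1 or b2r2 (adjusted p = 0.0691 to 0.104). Il12rb1, a receptor chain of both cytokines, differed by 0.67 (adjusted p = 0.0354), 0.38 (adjusted p = 0.237) and 0.14 (adjusted p = 0.668) in the same order, and its Ad-ATP12A call ended without Ad-ATP12A b1r1, b1r2, b2r1 or b2r2 or control b1r1, b1r2, b2r1 or b2r2 (adjusted p = 0.0520 to 0.109). Il12a, the p35 subunit and most abundant ligand chain, averaged 2.13 TPM and passed in no comparison.

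Partners outside the Il symbols passed in Ad-ATP12A lungs alone, where 2 of 6 tested rose. Among them was Ebi3, the partner subunit of IL-27, which differed by 0.61 (adjusted p = 0.0117) in Ad-ATP12A, 0.42 (adjusted p = 0.0739) in Ad-GFP and 0.32 (adjusted p = 0.155) in bleomycin lungs. No single library ended its Ad-ATP12A call.

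In the IL-17 family the one change was a fall of Il17rd, a receptor-like protein also known to restrain fibroblast growth factor signalling. Of 11 members 6 were tested. Il17rd had 4.13, 6.6, 7.37 and 8.73 TPM in Ad-ATP12A lungs and 5.36, 4.72, 13.7 and 7.46 TPM in Ad-GFP lungs. It had 4.41, 4.38, 10.5 and 10.8 TPM in bleomycin lungs, against 11.6, 10.9, 14.1 and 11.7 TPM in control lungs. All exposed libraries but Ad-GFP b2r1 lay below all controls, and the lowest were those of batch 1, at 4.13 to 6.60 TPM. The differences were -0.79 ± 0.21 (SE; adjusted p = 0.0165) in Ad-ATP12A, -0.66 ± 0.21 (SE; adjusted p = 0.0490) in Ad-GFP and -0.71 ± 0.21 (SE; adjusted p = 0.0299) in bleomycin lungs. Within batches the bleomycin difference was -1.18 in batch 1 and -0.25 in batch 2. The Ad-ATP12A call of Il17rd ended without Ad-ATP12A b2r1 or control b1r1 or b1r2 (adjusted p = 0.0514 to 0.0539). Its Ad-GFP call ended in 13 of the 16 fits that left out 1 library, all but those without Ad-ATP12A b1r2, Ad-GFP b2r1, or control b2r2 (adjusted p = 0.0525 to 0.155). In bleomycin lungs the call ended without bleomycin b1r1 or b1r2 or control b1r1 or b1r2 (adjusted p = 0.0878 to 0.0974).

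The signalling receptor Il17ra averaged 20.9 TPM and differed by 0.14 (adjusted p = 0.651) in Ad-ATP12A, 0.01 (adjusted p = 0.978) in Ad-GFP and 0.15 (adjusted p = 0.644) in bleomycin lungs. Among the ligands only Il17d was tested, and it held 2.14 to 4.71 TPM with no call. Il17a lay at or below 0.31 TPM in every library. Of 9 listed IL-17 signalling genes and targets, 7 were tested: 2 rose and 1 fell in Ad-ATP12A, and 1 rose in each of Ad-GFP and bleomycin lungs. Those that rose numbered 1 to 4, 0 to 2 and 1 to 2 with 1 library left out. Lcn2, which encodes the iron-sequestering protein lipocalin-2, rose by 1.14 (adjusted p = 0.0288) in Ad-ATP12A, 1.13 (adjusted p = 0.0418) in Ad-GFP and 1.43 (adjusted p = 0.0121) in bleomycin lungs. The Ad-ATP12A call of Lcn2 ended without Ad-ATP12A b1r1, b1r2 or b2r2 or control b1r2, b2r1 or b2r2 (adjusted p = 0.0517 to 0.0792) and the Ad-GFP call without Ad-ATP12A b2r2, Ad-GFP b1r1, b1r2 or b2r1, or control b1r2, b2r1 or b2r2 (adjusted p = 0.0526 to 0.122). The chemokine Ccl20 rose in Ad-ATP12A lungs by 3.18 (adjusted p = 0.0110), and the adaptor Traf3ip2 fell there, with -0.45 (adjusted p = 0.0182), a call that ended without Ad-ATP12A b2r1 or b2r2 (adjusted p = 0.0562 to 0.0568). Summed neutrophil markers (7 genes) were 138 to 523 TPM in Ad-ATP12A, 170 to 255 TPM in Ad-GFP, 145 to 642 TPM in bleomycin and 193 to 701 TPM in control lungs, and none of the 6 tested passed in any of the 3 comparisons. Without control b2r2, the control library lowest in them at 193 TPM, 4 of the 6 fell in each. Mmp8 went the other way, averaging 9.43, 5.50 and 8.90 TPM in Ad-ATP12A, Ad-GFP and bleomycin lungs, against 3.45 TPM in control lungs. Retnlg averaged 29.3 TPM in Ad-ATP12A lungs and 28.9 TPM in control lungs, and less in the other groups. The remaining markers averaged lower in each exposed group.

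Members outside these families included 2 that changed. Il16, a lymphocyte attractant, fell in Ad-GFP and bleomycin lungs. Il16 had 9.92, 11.3, 13.5 and 14.2 TPM in Ad-ATP12A lungs and 6.92, 6.95, 11.6 and 13.5 TPM in Ad-GFP lungs. It had 7.58, 7.37, 16.7 and 15.6 TPM in bleomycin lungs, against 14.8, 15.3, 20.04 and 14.6 TPM in control lungs. All exposed libraries but bleomycin b2r1 and b2r2 lay below all controls. The differences were -0.38 ± 0.16 (SE; adjusted p = 0.101) in Ad-ATP12A, -0.72 ± 0.16 (SE; adjusted p = 0.0118) in Ad-GFP and -0.50 ± 0.16 (SE; adjusted p = 0.0426) in bleomycin lungs. The bleomycin difference was -0.92 in batch 1 and -0.08 in batch 2, and the call ended in 11 of the 16 fits that left out 1 library, all but those without Ad-ATP12A b1r2 or b2r1, Ad-GFP b2r2, bleomycin b2r1, or control b2r2 (adjusted p = 0.0501 to 0.136). No single library ended the Ad-GFP call.

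Il4i1, a secreted enzyme that oxidizes aromatic amino acids, was higher in every exposed library than in every control. Il4i1 had 26.1, 22.9, 7.2 and 7.74 TPM in Ad-ATP12A lungs and 6.47, 4.69, 5.38 and 26.03 TPM in Ad-GFP lungs. It had 6.31, 6.63, 9.79 and 13.6 TPM in bleomycin lungs, against 3.65, 3.11, 3.39 and 3.56 TPM in control lungs. Ad-ATP12A b1r1 and b1r2 and Ad-GFP b2r2 were the highest, and the other exposed libraries held 13.6 TPM or less. The differences were 1.73 ± 0.49 (SE; adjusted p = 0.0224) in Ad-ATP12A, 1.06 ± 0.49 (SE; adjusted p = 0.158) in Ad-GFP and 1.13 ± 0.49 (SE; adjusted p = 0.120) in bleomycin lungs. For Il4i1, the Ad-ATP12A call ended without Ad-ATP12A b1r1 or b1r2 or control b1r2 (adjusted p = 0.0535 to 0.0681). Il34, which like CSF1 is a ligand of the CSF1 receptor, held 15.2 to 29.1 TPM and differed by 0.09 (adjusted p = 0.689) in bleomycin lungs. The antisense RNA Il1bos stayed between 0.15 and 0.88 TPM and was not tested. The strand setting of the counting was not given in the sources used here, so its reads and those of Il1b may not be separate.

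Between the exposed groups no member passed. In Ad-ATP12A against Ad-GFP, which asks what the ATP12A virus added to the control virus, 0 of 50 members were called, where 0.00588% of all genes (1 of 17003) were. Unadjusted p lay under 0.05 for 2 members and 413 genes. The smallest belonged to Il2rb, the shared IL-2 and IL-15 receptor chain, at 0.67 ± 0.24 (SE; unadjusted p = 0.0147, adjusted p = 0.999), then Il21r at 0.53 ± 0.24 (adjusted p = 0.999) and Il16 at 0.34 ± 0.16 (adjusted p = 0.999). Il2rb had 7.03, 7.13, 13.2 and 10.4 TPM in Ad-ATP12A lungs and 3.9, 3.85, 4.97 and 10.5 TPM in Ad-GFP lungs. It had 3.59, 3.57, 8.26 and 10.5 TPM in bleomycin lungs, against 5.43, 5.65, 7.17 and 4.29 TPM in control lungs. In batch 1 both Ad-ATP12A libraries exceeded both Ad-GFP libraries, and in batch 2 the groups overlapped. Over the 50 members the difference ran from -0.27 to 0.67, and the median 95% interval was the difference ± 0.46. For Il1rn it was ± 1.30, the widest, and for Il10rb ± 0.18, the narrowest. The interval of Il2rb ran from 0.15 to 1.19 without adjustment, and a p that misses the threshold does not show that the groups were alike.

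In Ad-GFP against bleomycin, which bears on the virus itself, 0 of 50 members were called, where 0.0118% of all genes (2 of 17003) were. Unadjusted p lay under 0.05 for 4 members and 287 genes. The smallest belonged to Il1b at -0.99 ± 0.28 (SE; unadjusted p = 0.00377, adjusted p = 1.000), with -0.48 in batch 1 and -1.49 in batch 2. Its 95% interval ran from -1.60 to -0.38 without adjustment. Il2rg followed at -0.38 ± 0.14 and Il27ra, the IL-27 receptor chain, at -0.41 ± 0.17 (unadjusted p = 0.0188 and 0.0309). Over the 50 members the difference ran from -0.99 to 0.31. Neither comparison between exposed groups called a member under any setting run.

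The batches also differed. In batch 2 against batch 1, adjusted for group, 12 members differed, 11 higher and 1 lower, where 18.5% of all genes differed (16.4% higher and 2.11% lower). Il6ra was higher by 0.70 ± 0.11 (SE; adjusted p = 0.00717), the IL-1 receptor accessory chain Il1rap by 0.76 ± 0.13 (SE; adjusted p = 0.00841) and Il17rd by 0.68 ± 0.15 (SE; adjusted p = 0.0121). Il16 was higher by 0.58 (adjusted p = 0.00981), Il15 by 0.47 (adjusted p = 0.0194) and Il1rl2 by 0.53 (adjusted p = 0.0208), and no single library ended these 6 calls. Il6ra, Il16 and Il17rd, the members lower in bleomycin lungs, were thus all higher in batch 2. The other 6 calls were less stable. Il2rb (0.65) lost its call without bleomycin b1r2 or b2r2 (adjusted p = 0.0503 to 0.0517). Il7r (0.42) lost it without Ad-ATP12A b1r1 or b2r2, Ad-GFP b1r1 or b2r2, or bleomycin b1r2, b2r1 or b2r2 (adjusted p = 0.0551 to 0.0717). Il6st (0.55) lost it in 11 of the 16 fits that left out 1 library, all but those without bleomycin b2r1 or control b1r1, b1r2, b2r1 or b2r2 (adjusted p = 0.0542 to 0.0749). Il2ra (0.47) lost it in 11 of the 16 fits that left out 1 library, all but those without Ad-GFP b2r1 or control b1r1, b1r2, b2r1 or b2r2 (adjusted p = 0.0534 to 0.0861). Il17ra (0.45) lost it in 11 of the 16 fits that left out 1 library, all but those without Ad-GFP b2r1, bleomycin b2r1, or control b1r1, b1r2 or b2r2 (adjusted p = 0.0540 to 0.0890). Il11ra1 (-0.52) lost it in 12 of the 16 fits that left out 1 library, all but those without control b1r1, b1r2, b2r1 or b2r2 (adjusted p = 0.0555 to 0.0774). Controls did not follow every one of these differences. In control lungs Il6st had 207, 151, 159 and 125 TPM and Il11ra1 47.3, 44.4, 52.3 and 67.2 TPM, against the direction of the call. Il7r, with 11.4, 11.95, 13.3 and 15.3 TPM, followed it.

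The count of 12 fell to 7 without Ad-ATP12A b1r1, Ad-ATP12A b2r2 or Ad-GFP b2r2 and to 6 without bleomycin b1r2 or b2r2. It was 0 without the 3 libraries low in Scgb1a1. Under quantile normalization it was 6, with 5 higher and 1 lower, and the share of all changed genes that were higher in batch 2 was 52.2%, beside 88.6% without it. That scaling moved the median of all genes in this comparison by 0.10.

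**Figure D5:**
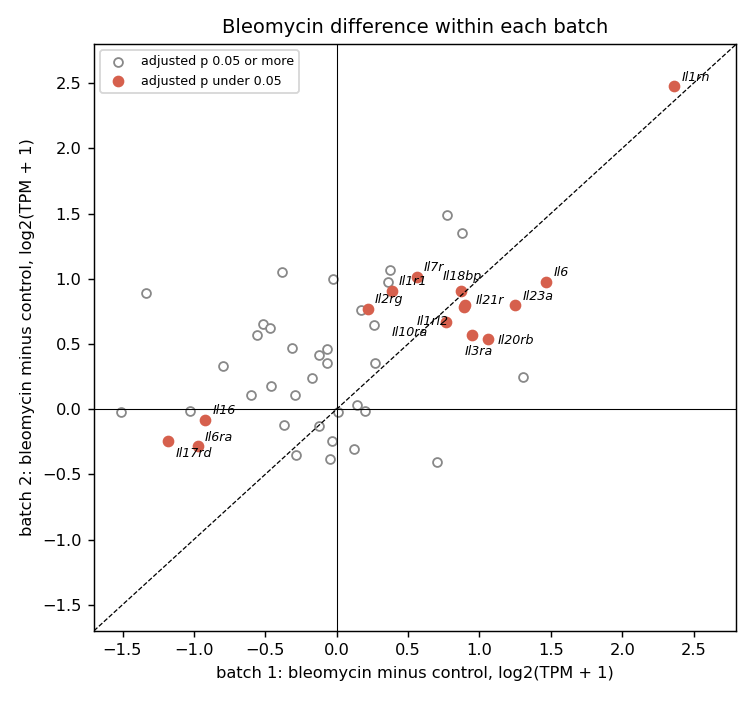
Difference of bleomycin from control lungs in log2(TPM + 1), within batch 1 on the horizontal axis and within batch 2 on the vertical axis, for the 50 members tested, with 2 libraries per group and batch. The 15 changed members (filled) were called on both batches together, and Il6ra, Il17rd and Il16 lie far from the dashed line of equal difference.

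Whether a difference from control itself changed between batches was tested as an interaction. For bleomycin no member passed, where 0.0647% of all genes did, and 13 members and 3230 genes had an unadjusted p under 0.05. The smallest p belonged to Il11ra1 (-1.11, adjusted p = 0.0610), Il18r1 (0.78, adjusted p = 0.0822) and Il16 (0.84, adjusted p = 0.0837), each given as the batch 2 minus the batch 1 difference. In Ad-GFP lungs 2 members passed, where 2.36% of all genes did. These were Il18r1, with -0.36 in batch 1 and 0.64 in batch 2, and Il11ra1, the IL-11 receptor chain, with 0.86 in batch 1 and -0.42 in batch 2, and Il6st came next (1.17, adjusted p = 0.0561). In Ad-ATP12A lungs 2 passed, where 2.8% of all genes did. These were Il6st, with -1.03 in batch 1 and 0.16 in batch 2, and Il11ra1, with 0.52 in batch 1 and -0.62 in batch 2, and Il4ra came next (1.72, adjusted p = 0.0577).

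The values of Il11ra1 show the pattern. Il11ra1 had 65.5, 66.6, 35.8 and 40.6 TPM in Ad-ATP12A lungs and 84.4, 83.9, 52.6 and 36.8 TPM in Ad-GFP lungs. It had 72.1, 78.3, 45.5 and 43.6 TPM in bleomycin lungs, against 47.3, 44.4, 52.3 and 67.2 TPM in control lungs. Exposed lungs of batch 1 lay above the controls of that batch, and exposed lungs of batch 2 below theirs, except Ad-GFP b2r1, which lay just above the lower of them. Reads of Il11ra1 can be shared with its near-identical copy Il11ra2, so its level is uncertain. The interaction call of Il11ra1 ended in 11 of the 16 fits that left out 1 library, all but those without Ad-GFP b1r1, b1r2, b2r1 or b2r2 or control b2r1 (adjusted p = 0.0510 to 0.128) for Ad-ATP12A lungs and without Ad-GFP b1r1, b1r2 or b2r2, bleomycin b1r1 or b1r2, or control b1r1, b1r2 or b2r2 (adjusted p = 0.0530 to 0.148) for Ad-GFP lungs. The call of Il6st ended in 13 of the 16 fits that left out 1 library, all but those without Ad-GFP b1r1 or b1r2 or control b2r1 (adjusted p = 0.0513 to 0.160). The call of Il18r1 ended in 13 of the 16 fits that left out 1 library, all but those without Ad-ATP12A b1r1 or b1r2 or control b2r1 (adjusted p = 0.0506 to 0.162).

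Between exposed groups no interaction passed, where 0.0% of all genes did: 4 members and 1070 genes had an unadjusted p under 0.05 in Ad-ATP12A against Ad-GFP, and 3 members and 538 genes in Ad-GFP against bleomycin. The smallest p were those of Il12b (-1.66, adjusted p = 0.578), Il4i1 (-2.60, adjusted p = 0.720) and Il18r1 (-0.63, adjusted p = 0.755) in the comparison of the viruses. In Ad-GFP against bleomycin they were those of the IL-9 receptor Il9r (-1.23, adjusted p = 0.998), Il11 (1.39, adjusted p = 0.998) and Il33 (-2.13, adjusted p = 0.998).

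Markers of other cells differed between the groups beside all of these results. Lung epithelial markers (7 genes) summed to 39179 to 83161 TPM in Ad-ATP12A, 39617 to 64461 TPM in Ad-GFP, 16938 to 91041 TPM in bleomycin and 38736 to 149844 TPM in control lungs, with medians of 62863, 44243, 61674 and 132235 TPM. The ranges overlapped through control b2r1 alone, a library low in Scgb1a1. The other controls held 129033 to 149844 TPM, above every exposed library. Scgb1a1 had the highest mean of the 7 in each group and weighed most in this sum. It averaged 42294, 22703 and 37294 TPM in Ad-ATP12A, Ad-GFP and bleomycin lungs, against 82737 TPM in control lungs. Foxj1 averaged 60.1, 54.9 and 50.6 TPM in the same order, above 47.6 TPM in control lungs. The other markers averaged lower in each exposed group. Of the 7 only Hopx, of type I alveolar cells, fell, with -0.89 (adjusted p = 0.00253) in Ad-ATP12A, -0.64 (adjusted p = 0.0198) in Ad-GFP and -0.71 (adjusted p = 0.00885) in bleomycin lungs. The Ad-GFP call of Hopx ended without Ad-GFP b1r2 or b2r2 or control b1r2 or b2r1 (adjusted p = 0.0532 to 0.0731). Summed fibroblast markers (5 genes) were 596 to 2800 TPM in Ad-ATP12A, 480 to 2040 TPM in Ad-GFP, 795 to 1569 TPM in bleomycin and 359 to 421 TPM in control lungs. Of the 5, 2 rose in each of Ad-ATP12A and Ad-GFP and 3 in bleomycin lungs, the collagen genes Col1a1 and Col1a2 in each. Col1a1 and Col1a2 had the highest means of the list in each exposed group and weighed most in its sum there. Lum also averaged higher in each exposed group than in control lungs. Pdgfra went the other way and averaged lower in each. Dcn averaged higher than control in Ad-ATP12A and Ad-GFP lungs and lower in bleomycin lungs. Endothelial markers (5 genes) summed to 453 to 873 TPM, 590 to 1356 TPM and 621 to 1149 TPM in Ad-ATP12A, Ad-GFP and bleomycin lungs, against 1106 to 1578 TPM in control lungs. All 5 endothelial markers fell in Ad-ATP12A lungs, and 1 fell in each of Ad-GFP and bleomycin lungs. The 5 became 2 without Ad-ATP12A b1r1 or b2r1 or control b1r1 or b1r2 and 3 without Ad-ATP12A b2r2 or control b2r1. With 1 library left out the count ran from 1 to 5 in Ad-GFP lungs, 5 being without Ad-GFP b2r1, and from 0 to 3 in bleomycin lungs. Alveolar macrophage markers (6 genes) summed to 431 to 4883 TPM, 770 to 2301 TPM and 846 to 1143 TPM in the same order, against 712 to 1480 TPM in control lungs. Of the 6, 2, 1 and 1 fell, and 0 to 4, 1 to 2 and 0 to 1 did with 1 library left out. The list went both ways. Marco averaged 32.1, 15.0 and 17.5 TPM in Ad-ATP12A, Ad-GFP and bleomycin lungs, above 11.8 TPM in control lungs. Chil3 averaged 1358, 1089 and 540 TPM in the same order, against 617 TPM in control lungs. Car4, Siglecf and Krt79 averaged lower in each exposed group, and Ear2 averaged higher in bleomycin lungs alone. Mast cell and basophil markers (7 genes) were low, at 1.98 to 5.61 TPM, 2.23 to 4.83 TPM and 1.88 to 3.6 TPM, against 6.33 to 13.7 TPM in control lungs. Only 3 of the 7 were tested. Ms4a2 averaged 0.348, 0.425 and 0.273 TPM in Ad-ATP12A, Ad-GFP and bleomycin lungs and 2.24 TPM in control lungs, and entered the test mainly through control libraries, so no count of calls is given. No marker of any list was at 0 in every library. Their part in the interleukin differences was not tested.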

How the data were processed

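Per the labels, RNA for the 16 mouse lung libraries was purified with an RNeasy mini plus kit, and 0.6 ug went into each library. The submitters' processing notes name STAR, RSEM and the build GRCm39 (mm39), with no versions. The authors deposited log2 values, log2 of TPM plus 1 for 53647 Ensembl identifiers. Values were turned back to TPM, which lie in steps of 0.01. TPM keeps no read counts, so depth is unknown and no count model was used. Symbols came from GENCODE M21, of an earlier build, and matched 52093 identifiers.

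The test was limma 3.58.1 in R 4.3.3, two-sided, on log2(TPM + 1) with a mean-dependent prior variance. It used all 16 libraries with 4 group means and batch, over the 17003 genes that reached 1 TPM in 4 or more libraries, with Benjamini-Hochberg adjustment and a threshold of 0.05. Whether a difference changed between batches was tested in a fit of 8 group-by-batch means. Values within a batch are untested differences of means over 2 libraries per group. The procedure was tested on simulated data. Members and lists were chosen with earlier results of these data known. Named were all changed members, the most abundant ligand and receptor of each family, the 3 smallest p where fewer than 3 members passed, and up to 4 partner genes per list, of which some are not reported here. Il2rb levels, Il11, Il10, Il22ra2, Il33 levels and the ratios were added after values were seen. Promoters are shown in place of proteins, whose sequences were not used here. Alternatives were another pseudocount and filter, quantile normalization, a robust prior variance, no batch term, a replicate block, the compared groups alone, each batch alone, and each library left out. Fits with Xist expression as a covariate, and without the 3 Scgb1a1-low libraries, were chosen after seeing the data. Deviations of same-numbered libraries from their group and batch means had r between -0.158 and 0.212 over 12 pairs. This showed no pairing by replicate number but cannot exclude it, since each mean is over 2 libraries. Figures were drawn with matplotlib 3.10.9.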

Additional observations from a re-analysis of the deposited data

Results flagged for a closer look

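Il1rn in the Ad-ATP12A library b2r2, at 108 TPM (107.54 before rounding), stood apart from the other 3 libraries of its group, which held 14.8 to 27.4 TPM. It was the one such library in 64 groups of 4 libraries examined over 16 members, where chance alone marks about 1 in 20 groups.

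These differences from control changed between batches by limma's interaction test, each given as batch 2 minus batch 1. In Ad-GFP lungs Il18r1 changed by 0.99 (adjusted p = 0.0376) and Il11ra1 by -1.29 (adjusted p = 0.0324). In Ad-ATP12A lungs Il6st changed by 1.20 (adjusted p = 0.0498) and Il11ra1 by -1.14 (adjusted p = 0.0380). In each case the difference from control had opposite signs in the 2 batches. Reads of Il11ra1 may be shared with Il11ra2.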

How the results depend on the processing

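The number of changed members is the result that moved most. In bleomycin against control it was 15, and became 9 with no filter on low values, 9 with no batch term, 20 in batch 1 alone (12 of the 15 among them), 18 with the compared groups alone (14 of the 15), 0 in batch 2 alone and 2 without the 3 libraries low in Scgb1a1. Leaving out 1 library in turn gave 6 to 17. In Ad-GFP against control it was 11, and became 4 with no filter, 3 with no batch term, 2 with the compared groups alone, 12 in batch 1 alone (7 of the 11), 0 in batch 2 alone and 3 without those 3 libraries, with 2 to 15 over left-out libraries. In Ad-ATP12A against control it was 19, and became 11 with no filter, 12 with a mean of at least 5 TPM, 12 with no batch term, 15 in batch 1 alone (11 of the 19), 8 in batch 2 alone and 10 without the 3 libraries, with 10 to 20 over left-out libraries. In batch 2 against batch 1 it was 12, and became 6 with no filter, 6 under quantile normalization and 0 without the 3 libraries, with 6 to 12 over left-out libraries. The interaction counts ran from 0 to 5 for Ad-ATP12A, 0 to 6 for Ad-GFP and 0 to 3 for bleomycin against control, 0 to 1 for Ad-ATP12A against Ad-GFP and 0 to 0 for Ad-GFP against bleomycin. The replicate block rests on numbers that showed no pairing. It gave 16 members in Ad-ATP12A, 9 in Ad-GFP and 12 in bleomycin lungs against control, and 0 between exposed groups. A term for Xist-expressing libraries gave 21, 11 and 15 members in the same order, and 9 in batch 2 against batch 1. The cause of these moves was not tested. Of 1756 alternative values of 67 named differences, 1311 kept direction and side of the threshold, 445 kept direction but missed it, and none reversed. Most of the 67 were named because they passed in the main fit, and most alternatives left out 1 library. A reversal was therefore unlikely from the start. Depth is unknown, so no counting error can be given for members under 1 TPM.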
